A study of Homo sapiens with 4 samples.

Results

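The 38 genes of tRNA charging described here are 19 cytosolic aminoacyl-tRNA synthetase genes, 16 mitochondrial synthetase genes and 3 scaffold genes of the multisynthetase complex, matched by GENCODE symbol among 64252 genes in the count matrix. All 38 passed the filter on low counts that left 18779 genes for testing. RNA sequencing was performed on SK-N-BE(2), an established human neuroblastoma cell line with amplified MYCN, carrying scrambled shRNA (sh-Scb, 2 libraries) or an shRNA against SAPCD2, a cell polarity and cell cycle protein (sh-SAPCD2, 2 libraries). According to the methods of the study, the shRNAs were delivered by lentivirus and the cells were selected with puromycin, so the control cells carry a vector and a scrambled hairpin as well. The labels do not say whether the paired libraries of a group came from separate cultures, so a p-value measures the spread between these libraries, which may be technical. The question was how cytosolic and mitochondrial enzymes differed in level between SAPCD2-knockdown and control cells.

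Aminoacyl-tRNA synthetases attach each amino acid to its tRNA before the ribosome can use it. The cytosol and the mitochondrion translate separately, and for most amino acids a separate nuclear gene, usually named with the suffix 1 or 2, supplies the enzyme of each compartment. In the cytosol, several of these enzymes are held with the scaffold proteins AIMP1, AIMP2 and EEF1E1 in the multisynthetase complex. Many cytosolic synthetase genes are known targets of ATF4, the transcription factor of the amino acid response, whose mRNA is translated when uncharged tRNA accumulates.

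SAPCD2 itself measured 83.4 and 82.1 CPM (read counts scaled to the same library total) in sh-Scb cells and 35.3 and 52.4 CPM in sh-SAPCD2 cells, a log2 fold change of -0.91 (SE 0.193, adjusted p = 0.0206, edgeR). The sh-SAPCD2 libraries thus kept 42.7% and 63.3% of the control level, and the knockdown was partial and unequal between them. Library totals ran from 25347900 to 31850997 counts, and the counts of single members in a library from 110 (VARS2) to 11102 (IARS1), so the mitochondrial enzyme for valine was the least precisely counted. Of 9 neuroblastoma markers, none was at 0 in these libraries. The defining genes SOX10 (Schwann cells), CD3E and ITGAM (leukocytes), CDH1 (epithelium) and PRRX1 (mesenchyme) were at 0. Among the neuroblastoma markers, MYCN rose from 3231 and 3174 to 5897 and 7082 CPM, whereas ISL1, DBH and CHGB fell, and the part of these shifts in the values below was not tested. In bulk RNA, fewer cells of a type and less RNA per cell cannot be told apart.

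The promoters were searched for the letters that ATF4 is known to bind. RefSeq promoter windows (GRCh38.p14, 250 bases before to 50 bases after a start site) were matched for 33 of the 38 members, and those of AARS2, LARS1, VARS1, VARS2 and YARS1 were not matched. The letters TGATGNAA on either strand, the composite element read by C/EBP and ATF4 dimers, occurred in 3.62% of all 35116 windows and in a window of 4.46% of genes. They occurred in 7 of the 16 matched cytosolic genes, in 1 of the 14 matched mitochondrial genes (YARS2) and in none of the 3 scaffold genes. The 7 cytosolic matches are given 5′ to 3′ on the strand of the gene, with the element in capitals, so that the core can be compared between genes. The sequences of IARS1 and MARS1 belong to genes given with values in every library, and the other sequences were added to show the whole set.
IARS1 (chr9:92293673-92293740, minus strand): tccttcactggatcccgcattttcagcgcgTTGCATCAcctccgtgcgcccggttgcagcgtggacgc
MARS1 (chr12:57488034-57488097, plus strand): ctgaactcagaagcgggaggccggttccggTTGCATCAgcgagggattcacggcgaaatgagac
CARS1 (chr11:3057394-3057455, minus strand): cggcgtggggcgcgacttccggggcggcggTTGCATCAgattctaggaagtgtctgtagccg
TARS1 (chr5:33440937-33440994, plus strand): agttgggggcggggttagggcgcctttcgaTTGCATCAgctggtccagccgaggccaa
AARS1 (chr16:70289656-70289723, minus strand): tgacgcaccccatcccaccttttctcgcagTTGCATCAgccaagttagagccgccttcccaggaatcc
NARS1 (chr18:57621807-57621852, minus strand): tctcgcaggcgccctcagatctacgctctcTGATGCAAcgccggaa
GARS1 (chr7:30594815-30594882, plus strand): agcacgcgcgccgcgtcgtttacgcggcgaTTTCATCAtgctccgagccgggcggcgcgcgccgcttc

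Counted from a RefSeq start site, the element began 13 bases upstream in IARS1, 4 in MARS1, 2 in CARS1, 33 in GARS1 and 187 in AARS1. In TARS1 and NARS1 it began within the first transcribed bases. In GENCODE, whose annotated genes start further upstream, the elements of all 7 cytosolic genes lie within the gene. In 6 of the 7 cytosolic genes the free position of the element was C on the strand that reads TGATGCAA, a spelling held by 0.866% of all windows and singled out here after the matches had been seen. The other motif searched was the E-box CACGTG, the core letters bound by MYC family dimers, which occurred in 7.26% of all windows and in a window of 8.77% of genes. It occurred in 5 members, namely MARS2, CARS2, IARS1, EARS2 and AIMP2. The E-boxes of the 3 members that passed the test are shown for comparison with their opposite directions below.
MARS2 (chr2:197705328-197705393, plus strand): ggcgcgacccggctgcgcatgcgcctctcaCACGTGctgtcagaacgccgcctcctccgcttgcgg
CARS2 (chr13:110706486-110706548, minus strand): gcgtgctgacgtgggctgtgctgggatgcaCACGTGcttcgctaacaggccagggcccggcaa
IARS1 (chr9:92293848-92293913, minus strand): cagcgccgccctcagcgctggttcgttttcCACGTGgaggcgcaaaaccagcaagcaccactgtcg

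The genes for the cytosolic and the mitochondrial histidine enzyme, HARS1 and HARS2, are read in opposite directions from RefSeq start sites 85 bases apart on chromosome 5. In GENCODE, which names the genes here, HARS1 and HARS2 overlap by 108 bases, so the stretch between the RefSeq start sites lies within annotated genes. The stretch between the start sites is shown in capitals on the strand of HARS1, with 30 bases of each gene's own transcript in lower case, because the enzymes read from it gave different values below.
HARS1 (chr5:140691341-140691484, minus strand): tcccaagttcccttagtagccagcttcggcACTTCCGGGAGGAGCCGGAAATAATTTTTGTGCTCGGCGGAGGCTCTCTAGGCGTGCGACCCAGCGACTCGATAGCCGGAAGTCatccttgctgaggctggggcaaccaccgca

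Per kilobase of transcript, cytosolic enzymes were expressed at higher levels than mitochondrial enzymes in control cells. The cytosolic median was 56.9 CPM per kb, from 8.51 for VARS1, the valine enzyme, to 128 for KARS1, the lysine enzyme. KARS1 and GARS1, the glycine enzyme, each encode the enzyme of both compartments. The mitochondrial median was 10.1 CPM per kb, from 1.36 for VARS2 to 38.2 for IARS2, the isoleucine enzyme. The scaffold genes lay between, from 21.7 (AIMP1) to 29.9 CPM per kb (AIMP2), with EEF1E1 between. In sh-SAPCD2 cells the medians were 57.0, 10.9 and 23.1 CPM per kb in the same order, so the order of the compartments was kept.

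**Figure D1:**
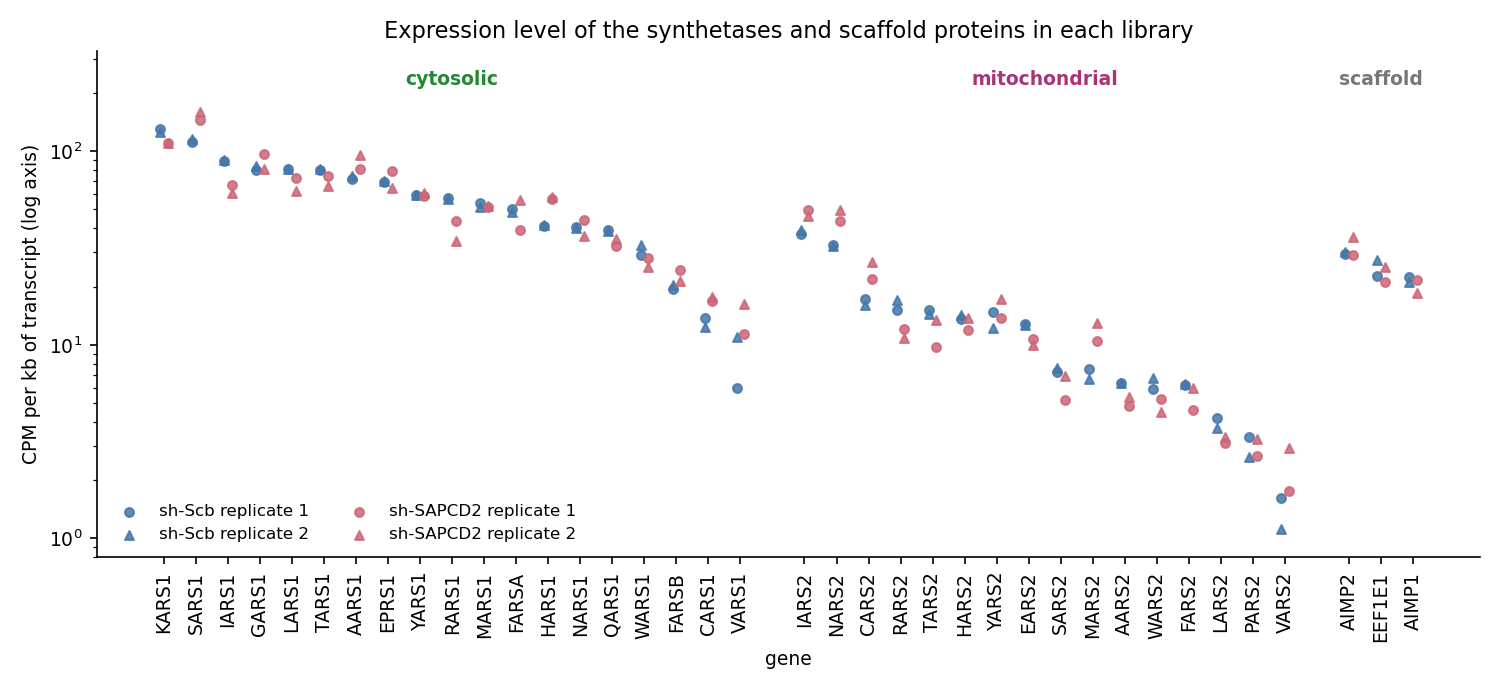
Level of each of the 38 genes in each of the 4 libraries, in CPM per kb of transcript on a log axis, ordered within compartment by the control mean. Circles are replicate 1 and triangles replicate 2; the mitochondrial enzymes sit mostly below the cytosolic enzymes, and the control libraries of VARS1 lie apart (24.7 and 45.3 CPM).

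Of the 38 members, 5 were higher and 3 were lower in SAPCD2-knockdown cells at an adjusted p under 0.05 (edgeR, Benjamini-Hochberg over all tested genes). That is 21.1% of the members, beside 24.8% of all 18779 tested genes, of which 12.4% were called higher and 12.5% lower. No member also passed an absolute log2 fold change of 1, the threshold of the study for a differentially expressed gene, which 9.84% of tested genes passed. The called members were the cytosolic enzymes RARS1 and IARS1 (lower) and SARS1 and HARS1 (higher), and the mitochondrial enzymes RARS2 (lower) and MARS2, CARS2 and NARS2 (higher). The share of members called was near the share of all genes, and each compartment held members of either direction.

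Among the cytosolic enzymes, RARS1, which charges tRNA with arginine, showed the lowest fold change. It measured 121.0 and 120.5 CPM in sh-Scb cells and 92.0 and 73.1 CPM in sh-SAPCD2 cells (chr5:168486451-168519301, 15 exons). Its log2 fold change was -0.55 (SE 0.136, adjusted p = 0.0322). The groups did not overlap, and the spread lay almost entirely within the knockdown group (SD 13.3 against 0.383 CPM, n = 2 each). IARS1, the isoleucine enzyme, measured 400.7 and 403.0 CPM in sh-Scb cells and 300.9 and 271.6 CPM in sh-SAPCD2 cells (chr9:92210207-92293854, 34 exons). It fell by 0.49 on the log2 scale (SE 0.0993, adjusted p = 0.0183), and every knockdown library was below every control library. Both enzymes belong to the multisynthetase complex.

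SARS1 and HARS1, which charge serine and histidine and act outside the complex, moved the other way. SARS1 measured 212.3 and 220.2 CPM in sh-Scb cells and 276.3 and 306.1 CPM in sh-SAPCD2 cells (chr1:109213918-109238182, log2 fold change 0.43, SE 0.101, adjusted p = 0.0287). HARS1 measured 79.8 and 80.7 CPM in sh-Scb cells and 109.8 and 112.4 CPM in sh-SAPCD2 cells (chr5:140673035-140691537, log2 fold change 0.47, SE 0.0988, adjusted p = 0.0205). Neither gene's groups overlapped, and the replicates of HARS1 nearly coincided in either group. HARS1 overlaps DND1 on its own strand and HARS2 and WDR55 on the other strand in GENCODE. The sources used here do not state whether strand was used in counting, so reads of overlapping genes cannot be told apart.

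VARS1, the valine enzyme, had the highest fold change of the cytosolic enzymes without passing the test. It measured 24.7 and 45.3 CPM in sh-Scb cells and 46.8 and 66.9 CPM in sh-SAPCD2 cells (log2 fold change 0.70, SE 0.308, adjusted p = 0.146). The highest control library lay just under the lowest knockdown library, and the replicates of each group differed by far more than that gap. With 61.7% GC, VARS1 had the highest GC content of the cytosolic members, whose median was 49.5%. Over the alternative settings its log2 fold change ran from 0.33 to 1.2 and its adjusted p from 0.00168 to 0.555. The other cytosolic enzymes that were not called ran from -0.26 (LARS1, leucine; adjusted p = 0.13) to 0.40 (CARS1, cysteine; adjusted p = 0.0635), and YARS1 (tyrosine) and NARS1 (asparagine) were at 0.00. Between these lay AARS1 (alanine) at 0.27, FARSB and FARSA, the subunits of the phenylalanine enzyme, at 0.20 and -0.06, GARS1 at 0.12, TARS1 (threonine) at -0.20 and WARS1 (tryptophan) at -0.21. The subunits of the phenylalanine enzyme thus had fold changes of opposite sign, neither called. The cytosolic median was 0.00 (quartiles -0.21 and 0.24), beside 0.02 (quartiles -0.40 and 0.42) over all tested genes.

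The cytosolic enzymes were also split by the multisynthetase complex. Of the 7 enzymes in the complex, 2 were lower and 0 higher, 6 had a fold change below 0, and the median was -0.22. Of the 12 outside it, 0 were lower and 2 higher, and the median was 0.16. Over all tested genes 12.5% were lower and 12.4% higher. The complex enzymes not called were LARS1 (-0.26), KARS1 (-0.22), QARS1, the glutamine enzyme (-0.20), MARS1, the methionine enzyme (-0.03), and EPRS1, which joins the glutamate and proline enzymes in a single protein (0.04). Averaged per library as the median deviation of log2 CPM from each gene's mean, the complex enzymes lay at 0.13 and 0.09 in sh-Scb cells and at -0.11 and -0.12 in sh-SAPCD2 cells, whereas the other cytosolic enzymes lay at -0.11 and -0.01 and at 0.12 and 0.12. Neither set overlapped between the groups. Of single tested genes 67.0% did not overlap, and the share for medians of gene sets was not computed. With 2 against 2 libraries, no exact two-sided p under 0.333 is possible. Under all 13 alternative fits the median of the complex enzymes stayed below 0 (-0.24 to -0.15) and that of the others above 0 (0.12 to 0.20). The calls did not split as cleanly. With the correction for GC content and length, 5 were higher and 1 lower outside the complex. Within it, 0 were higher and 4 lower, and over all genes 22.3% were higher and 20.3% lower under that correction. Of the 12 enzymes outside, 3 had a fold change below 0 in the reported fit. The number was 4 without sh-SAPCD2 replicate 1 or without sh-SAPCD2 replicate 2. It was 5 with scaling by library totals or over protein-coding genes. With 1 library left out in turn, EPRS1 within the complex ran from -0.11 to 0.18.

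The same split runs partly along the structural classes, which differ in the fold of the catalytic domain. Of 9 cytosolic class I enzymes, 2 were lower and 0 higher with a median of -0.20, and of 9 class II enzymes, 0 were lower and 2 higher with a median of 0.12, beside 12.5% lower and 12.4% higher over all tested genes. Calls the other way appeared under alternatives, for instance 1 class I enzyme higher and 1 class II enzyme lower with the correction for GC content and length. Under that correction 22.3% of all genes were higher and 20.3% lower. EPRS1, which holds a domain of each class, was counted in neither. In the mitochondrion the medians were 0.21 for 9 class I enzymes and -0.23 for 7 class II enzymes, the opposite order.

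The scaffold genes gave no call. AIMP1 measured 61.9 and 58.6 CPM in sh-Scb cells and 59.6 and 51.4 CPM in sh-SAPCD2 cells (log2 fold change -0.12, adjusted p = 0.515). AIMP2 measured 35.3 and 36.3 CPM against 35.0 and 43.0 CPM (0.12, adjusted p = 0.564), and EEF1E1 23.7 and 28.6 CPM against 22.1 and 26.3 CPM (-0.11, adjusted p = 0.648). The groups overlapped in all 3 genes. AIMP2 overlaps EIF2AK1 on the other strand, and EEF1E1 overlaps the annotated read-through gene EEF1E1-BLOC1S5, so these values are uncertain where counting could split them.

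**Figure D2:**
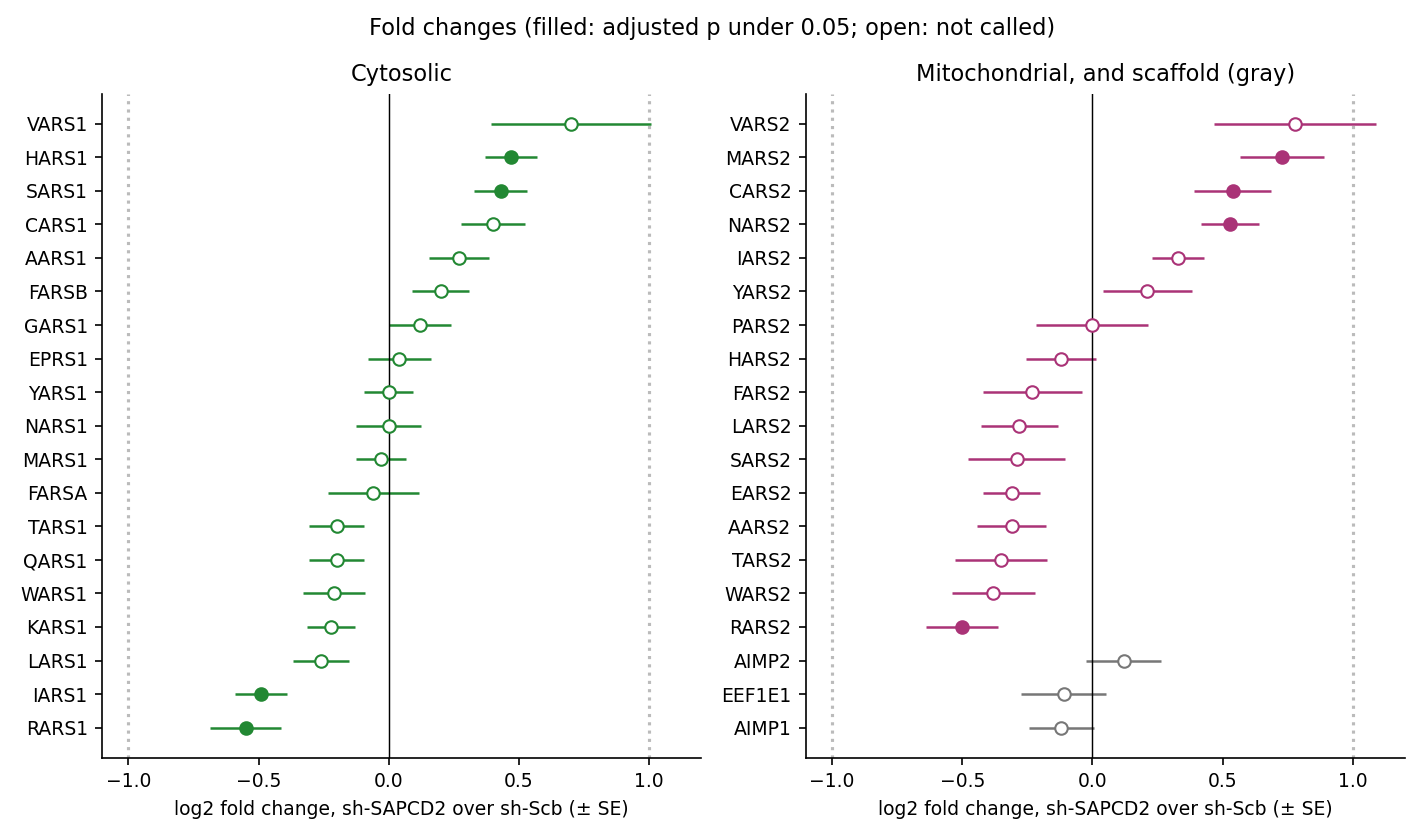
Log2 fold change (sh-SAPCD2 over sh-Scb) of each gene with its SE from the edgeR fit; filled points passed an adjusted p of 0.05, open points did not, and dotted lines mark an absolute value of 1. In either compartment the called enzymes lie on both sides of 0, from -0.55 (RARS1) to 0.73 (MARS2).

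In the mitochondrial compartment, RARS2, which charges mitochondrial tRNA with arginine, was the enzyme that fell. It measured 33.8 and 38.3 CPM in sh-Scb cells and 26.9 and 24.2 CPM in sh-SAPCD2 cells (chr6:87513459-87590028, log2 fold change -0.50, SE 0.138, adjusted p = 0.0461). Both knockdown libraries lay below both control libraries. WARS2, the tryptophan enzyme, was next lowest at 16.6 and 18.7 CPM against 14.6 and 12.6 CPM (log2 fold change -0.38, SE 0.160, adjusted p = 0.134), without overlap and without passing the test.

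The mitochondrial enzymes that rose were MARS2, CARS2 and NARS2. MARS2, the single-exon gene of the methionine enzyme, measured 22.67 and 20.04 CPM in sh-Scb cells and 31.5 and 39.1 CPM in sh-SAPCD2 cells (chr2:197705369-197708395, log2 fold change 0.73, SE 0.161, adjusted p = 0.0236). This was the largest called change of any member. CARS2, the cysteine enzyme, measured 31.7 and 29.5 CPM against 40.1 and 49.2 CPM (chr13:110641412-110713603, log2 fold change 0.54, SE 0.148, adjusted p = 0.0424). NARS2, the asparagine enzyme, measured 81.9 and 81.0 CPM against 109.6 and 125.1 CPM (chr11:78435620-78575194, log2 fold change 0.53, SE 0.112, adjusted p = 0.0211). In all 3 genes the groups were separated, and the second knockdown library, which kept more SAPCD2 mRNA, was the higher of the pair.

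VARS2 had the highest fold change of all members at the lowest level, 5.75 and 3.99 CPM in sh-Scb cells and 6.31 and 10.4 CPM in sh-SAPCD2 cells (log2 fold change 0.78, SE 0.311, adjusted p = 0.117). Its knockdown libraries differed more from each other than the nearest libraries of the groups did, and the adjusted p ran from 0.0232 to 0.378 over the alternatives. IARS2 measured 131.2 and 138.7 CPM against 175.2 and 163.4 CPM and missed the threshold (log2 fold change 0.33, SE 0.100, adjusted p = 0.0606). The other mitochondrial enzymes ran from -0.35 (TARS2, threonine) to 0.21 (YARS2, tyrosine), none of them called. Between these lay the enzymes for alanine (AARS2, -0.31), glutamate (EARS2, -0.31), leucine (LARS2, -0.28) and phenylalanine (FARS2, -0.23). In each of them the groups were separated with the knockdown libraries lower, which held for 33.4% of all tested genes. The mitochondrial median was -0.18 (quartiles -0.31 and 0.38), with 9 enzymes below 0, and PARS2, the proline enzyme, at 0.00. As the median deviation per library the mitochondrial enzymes lay at 0.11 and 0.07 in sh-Scb cells and at -0.12 and 0.06 in sh-SAPCD2 cells, and the cytosolic enzymes at 0.01, 0.00, -0.01 and -0.04. The difference between compartments, cytosolic minus mitochondrial, was -0.10 and -0.08 against 0.11 and -0.09, which overlapped between the groups, so no shift of a whole compartment against the other was seen at this number of libraries.

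**Figure D3:**
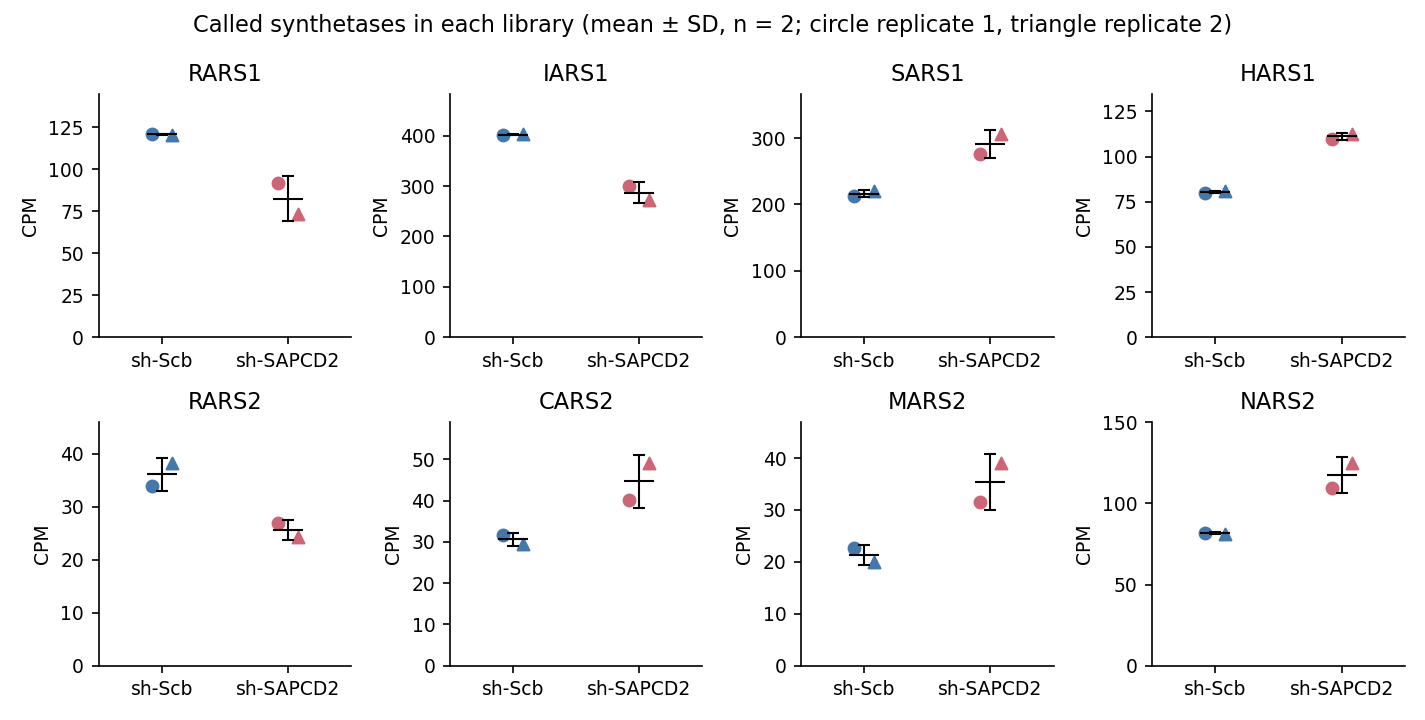
CPM of the 8 called enzymes in each library, with the mean and SD of each group (n = 2) on axes that start at 0. The groups do not overlap in any panel, and the knockdown replicates differ more than the control replicates in each gene except RARS2.

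The groups did not overlap in 26 of the 38 members, 11 higher and 15 lower, beside 67.0% of all tested genes (33.5% higher and 33.4% lower). All 8 calls depended on having both control libraries in the fit, but the directions were kept when 1 of them was left out. A lone control library is assumed to vary like the knockdown libraries. Without sh-Scb replicate 1, or without sh-Scb replicate 2, none of the 8 passed and 1 other member did (VARS2 at an adjusted p of 0.0421 and VARS1 at 0.00312, respectively), with 11.9% and 11.7% of all genes called. Without sh-SAPCD2 replicate 1 or replicate 2, 22 members passed, beside 42.4% and 35.6% of all genes, and all 8 were among them. Without the filter on low counts, which takes the fit to 34935 genes, only IARS1 remained (adjusted p = 0.0492), beside 6.47% of all genes. With each library corrected for GC content and transcript length, 19 members passed (9 higher and 10 lower), the 8 among them, beside 42.6% of all genes (22.3% higher and 20.3% lower). DESeq2 in place of edgeR called 10 members, beside 30.5% of all genes, adding VARS1 (adjusted p = 0.0199) and IARS2 (adjusted p = 0.0487).

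The enzymes of the same amino acid in both compartments were compared next, in 17 gene pairs for 16 amino acids. In 10 pairs the fitted fold changes had the same sign and in 7 opposite signs, and NARS1, YARS1 and PARS2, at 0.00, took part in 3 of the same-sign pairs. Pearson's r of the fold changes across the 17 pairs was 0.332, as a description, since the pairs share the 4 libraries and EPRS1 and FARS2 enter more than once. The ratio of cytosolic to mitochondrial enzyme separated the groups in 10 of the 17 pairs. The groups did not overlap in 67.0% of single tested genes, and the share for ratios of other gene pairs was not computed.

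For isoleucine the enzymes diverged most, by -0.82 (cytosolic minus mitochondrial fold change). The log2 ratio of IARS1 to IARS2 was 1.61 and 1.54 in sh-Scb cells and 0.78 and 0.73 in sh-SAPCD2 cells, and the replicates of a group differed far less than the groups. For methionine the ratio of MARS1 to MARS2 went from 2.74 and 2.84 to 2.19 and 1.89, with MARS1 at 151.7 and 144.1 CPM against 144.5 and 145.3 CPM (log2 fold change -0.03, adjusted p = 0.849). MARS1 thus overlapped between groups while MARS2 rose. MARS1 overlaps DDIT3 on the other strand, and DDIT3 was higher, from 9.15 and 8.17 to 19.3 and 20.2 CPM. For serine the order was turned, with the ratio of SARS1 to SARS2 at 3.92 and 3.91 in sh-Scb cells and 4.78 and 4.52 in sh-SAPCD2 cells. SARS2 itself measured 13.9 and 14.6 CPM against 10.02 and 13.26 CPM (log2 fold change -0.29, adjusted p = 0.297).

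Arginine gave the opposite picture. RARS1 and RARS2 both fell, their fold changes differed by -0.05, and their log2 ratio was 1.84 and 1.65 against 1.77 and 1.59, overlapping between the groups. For cysteine, CARS1 (0.40, adjusted p = 0.0635) and CARS2 (0.54, called) lay on the same side, and for valine VARS1 and VARS2 were at 0.70 and 0.78, neither called. For histidine, the enzymes read from the shared stretch printed above differed by 0.59, since HARS1 rose whereas HARS2 measured 33.7 and 35.2 CPM against 29.4 and 33.8 CPM (-0.12, adjusted p = 0.531). Their log2 ratio was 1.24 and 1.2 in sh-Scb cells and 1.90 and 1.73 in sh-SAPCD2 cells. For asparagine NARS1 was at 0.00 and NARS2 rose, and the ratio went from 0.45 and 0.45 to 0.16 and -0.31.

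**Figure D4:**
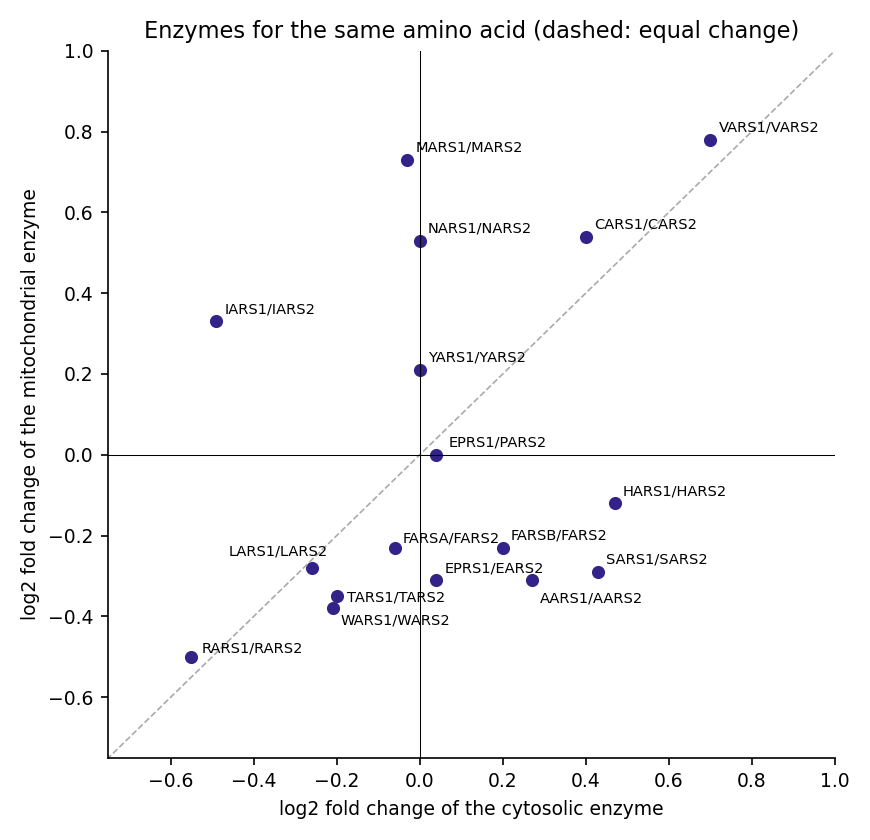
Log2 fold change of the cytosolic enzyme against that of the mitochondrial enzyme for the same amino acid, 17 gene pairs, with the line of equal change dashed. IARS1/IARS2, MARS1/MARS2 and SARS1/SARS2 lie farthest from the line (-0.82, -0.76 and 0.72), and RARS1/RARS2 lies near it with both enzymes lower.

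The members known as ATF4 targets were read beside the promoter element and the rest of the amino acid response. Of 12 cytosolic enzymes reported as ATF4 targets, 1 was higher (SARS1) and 1 lower (IARS1), with a median of 0.00. The 7 cytosolic genes with the element in the promoter window printed above included 0 higher and 1 lower (IARS1), again with a median of 0.00, and the 9 matched cytosolic genes without it 2 higher and 1 lower, with a median of -0.06. Neither median was away from 0 by more than 0.06. In the wider list of 20 amino acid response genes, 8 were higher and 1 was lower, with a median of 0.67, beside 12.4% of all genes called higher. SESN2, a stress-induced inhibitor of mTORC1 signaling, rose from 5.06 and 3.52 to 16.2 and 19.4 CPM (log2 fold change 2.05, adjusted p = 0.00406). SLC7A11, the cystine transporter, rose by 1.88 on the log2 scale, TRIB3, a pseudokinase, by 1.25, DDIT3, a C/EBP family factor, by 1.19, and SLC7A5, the transporter of large neutral amino acids, by 1.00. The gene called lower was EIF2AK1, a kinase of the integrated stress response (-0.54, adjusted p = 0.0129), named after its value had been seen. ATF4 mRNA measured 464.0 and 464.5 CPM against 410.6 and 412.9 CPM (-0.17, adjusted p = 0.203), a level that does not report its translation. Of the 5 members with an E-box, MARS2 and CARS2 were higher and IARS1 was lower. EARS2 (-0.31) and AIMP2 (0.12) were not called. Over all tested genes 24.8% were called, and 5 members are too few to compare with that share.

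The partners of the synthetases in charging were read from a list of 10 genes, of which 1 was higher and 2 were lower, beside 24.8% of all tested genes called. SEPSECS, which makes selenocysteine from phosphoserine on its tRNA, fell from 25.8 and 24.3 to 12.3 and 13.4 CPM (log2 fold change -0.96, SE 0.141, adjusted p = 0.00735). QRSL1, a subunit of the mitochondrial enzyme that makes glutamine on tRNA, was lower (-0.47, adjusted p = 0.0400), and TARS3, the second cytosolic threonine enzyme, rose by 0.70 on the log2 scale (adjusted p = 0.0131). The share called was near that of all genes.

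Downstream of charging, a list of 7 genes held cytosolic elongation factors and EEF2K, the kinase of EEF2. Of the 7 genes, 3 were higher and none was lower, beside 12.4% of all tested genes higher and 12.5% lower. These were EEF1A2, the neuronal and muscle form of the factor that carries charged tRNA (0.84, adjusted p = 0.0325), EEF1G, a subunit of its exchange factor (0.44, adjusted p = 0.0245), and EEF2, the translocation factor (0.53, adjusted p = 0.0393). Of 5 mitochondrial elongation factor genes none was called, and their fold changes ran from -0.08 (GUF1) to 0.39 (TSFM). In the supply of tRNA, 3 of 24 genes for transcription and maturation were higher and 2 lower, with a median of 0.17. This was 20.8% of the list, beside 24.8% of all tested genes called in either direction. POLR3G, a subunit of RNA polymerase III, rose from 10.85 and 11.98 to 42.0 and 36.8 CPM (1.79, adjusted p = 0.00248). MAF1, the repressor of that polymerase, fell from 54.95 and 63.05 to 14.7 and 20.7 CPM (-1.73, adjusted p = 0.00406). POLR3D and POLR3A were higher (0.75 and 0.45) and POLR3C lower (-0.68), so subunits of the same polymerase were called in either direction.

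**Figure D5:**
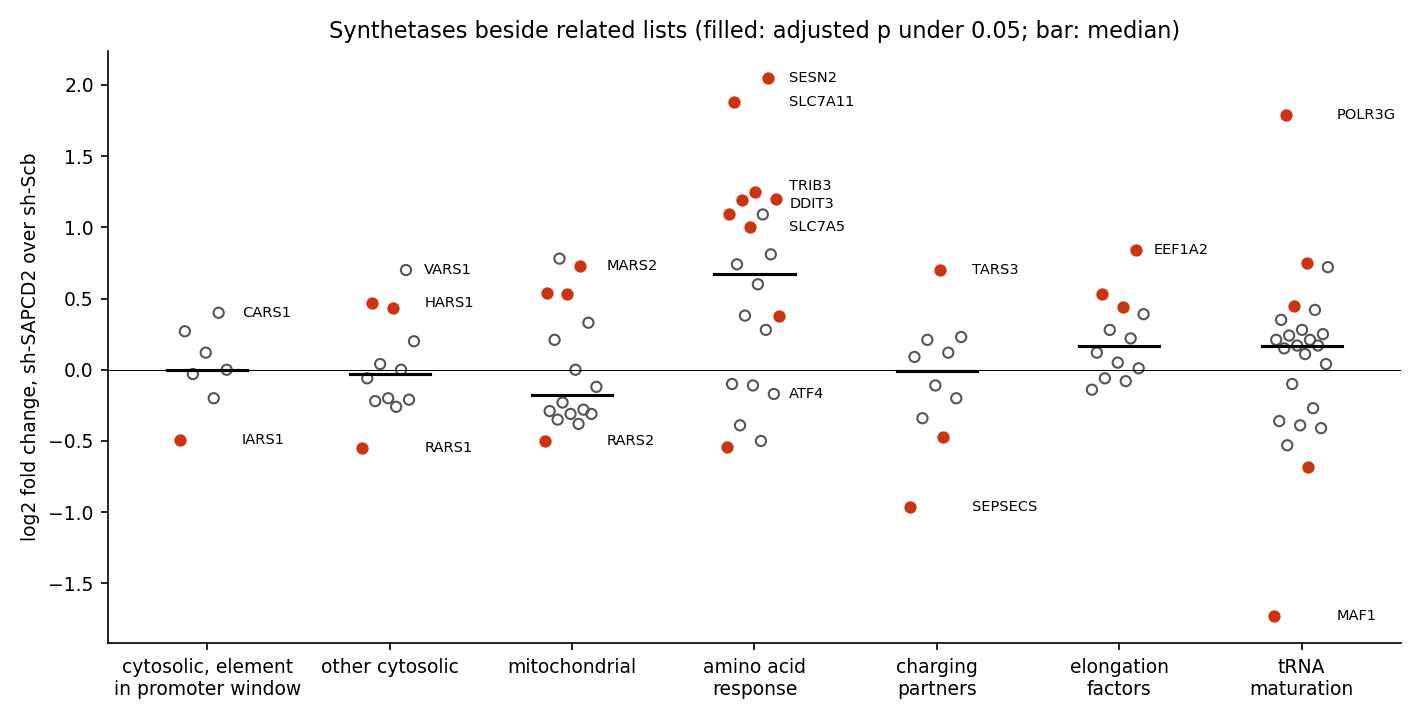
Log2 fold change of the cytosolic enzymes with and without the TGATGNAA element in the promoter window (the latter includes enzymes whose window was not matched), the mitochondrial enzymes and 4 related gene lists; each point is a gene, filled where adjusted p was under 0.05, and bars are medians. The amino acid response genes have a median of 0.67, whereas the cytosolic enzymes with the element have a median of 0.00.

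The 3′ UTRs of the members were read for sites of the hairpin. The libraries were taken to carry sh-SAPCD2 #1, which the labels do not state. Sites complementary to guide or passenger bases shifted from the seed (such as TCCACCT for the guide), singled out in earlier work on these data with fold changes known, occurred in 9 of 38 members (23.7%), beside 33.9% of 13583 tested genes with an annotated 3′ UTR. In the mitochondrial set, AARS2, EARS2, RARS2, SARS2, TARS2 and WARS2 held such a site, all with a fold change below 0 and a median of -0.33, RARS2 being the called enzyme. The 10 mitochondrial enzymes without a site had a median of 0.27 and included MARS2, CARS2 and NARS2. Over all tested genes with a 3′ UTR the medians were -0.07 with and 0.09 without a site, and since the sites were chosen on these fold changes, no support is drawn from either pair of medians. Cytosolic holders were FARSA, FARSB and LARS1, none of them called, and neither RARS1 nor IARS1 held a site. Sites for the seeds proper (ACCTTCA for the guide) occurred in EARS2 and LARS2 (5.26% of members, beside 26.4% of genes). The members' 3′ UTRs were short, with a median of 449 bases beside 1340 for all genes. The part of these sites in the fold changes was not tested.

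GC content also moved with direction among the called genes. RARS1, IARS1 and RARS2, which fell, had 41.1%, 43.3% and 41.8% GC, whereas SARS1, HARS1, MARS2 and CARS2, which rose, had 52.7%, 52.6%, 48.4% and 55.9%, and NARS2 had 43.9%. After the correction for GC content and length the 8 enzymes were called in the same directions, with RARS1 at -0.38 (adjusted p = 0.00579), IARS1 at -0.38 (adjusted p = 0.000979) and MARS2 at 0.77 (adjusted p = 0.003).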

How the data were processed

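Per the labels, total RNA was extracted with TRIzol, and libraries were made with an Illumina TruSeq kit and read on an Illumina NovaSeq instrument. The authors aligned paired-end reads to hg38 with HISAT2 2.2.0 and quantified them with StringTie, and the deposited matrix holds raw, whole-number counts per gene. How StringTie's output became counts, the annotation release and the use of strand are not given in the sources used here.

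Genes were named by Ensembl ID through GENCODE release 44 (17467 of the 18779 tested genes matched). Counts were scaled by TMM and tested with edgeR 4.0.16 (R 4.3.3, quasi-likelihood test, sh-SAPCD2 against sh-Scb, no covariate) after low genes were dropped by filterByExpr (count of at least 10, total over libraries of at least 15). Adjusted p-values are Benjamini-Hochberg over all tested genes, and called means under 0.05. On counts simulated for this comparison over 18779 genes, the test recovered 71 of 100 genes changed by 1 on the log2 scale and 97 of 100 changed by 2. The changes of the members lie below these sizes. CPM is the count divided by the TMM-scaled total and set to a common total. DESeq2 1.42.0, other scalings and filters, corrections and left-out libraries were alternatives.

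The members and lists were chosen with earlier results of these data known. Values in every library were given for called members, the 2 highest and 2 lowest fold changes per compartment, both enzymes of the 3 amino acids that diverged most, and the scaffold genes. HARS2 and the members whose element is printed were named beyond that rule. From other lists at most the 5 genes with the smallest p and ATF4 were named, beside EIF2AK1 and the cell type markers at 0. Protein sequences were not used here. Some genes of the related lists are not reported here.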

Additional observations from a re-analysis of the deposited data

How the results depend on the processing

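The 8 called enzymes kept their direction under every alternative run, but not their side of the threshold. Without a filter on low counts, 2261 genes were called over 34935 tested, with 0 cytosolic enzymes higher and 1 lower and with 0 mitochondrial enzymes in each direction, and SAPCD2 missed the threshold at an unchanged -0.91 (adjusted p = 0.0749). With an absolute log2 fold change over 1 asked as well, 1848 genes were called, with 0 enzymes in each of these counts, and SAPCD2 (-0.91) was not called. The correction for GC content and length called 7449 genes. These included 5 cytosolic enzymes higher and 5 lower, and 4 mitochondrial enzymes higher and 5 lower. The cytosolic median was 0.02 with DESeq2, -0.01 with library totals or the correction for GC content and length, and -0.03 over protein-coding genes. With 1 library left out in turn, the lone library being assumed to vary like the other group, called genes ran from 2328 to 8410, cytosolic enzymes higher from 0 to 7 and lower from 0 to 8, mitochondrial enzymes higher from 0 to 5 and lower from 0 to 5, scaffold genes lower from 0 to 1, the cytosolic median from -0.03 to 0.01, the mitochondrial median from -0.24 to -0.05, their difference from 0.02 to 0.22 and SAPCD2 from -1.23 to -0.67.

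Replicate numbers are shared by the groups in the labels, but libraries with the same number did not deviate together (correlation -0.0188), so the numbers were not taken as pairs. A replicate block called 5561 genes (29.6%) and 10 members, adding VARS1 (0.74, adjusted p = 0.00168) and VARS2 (adjusted p = 0.027), and turned NARS1 from 0.00 to a value below 0 that rounds to 0.00. The block with the correction for GC content and length called 7592 genes (43.5%), with a cytosolic median of -0.01. These included 6 cytosolic enzymes higher and 4 lower, and 4 mitochondrial enzymes higher and 5 lower.

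Signs turned only in members whose reported value lay between -0.12 and 0.12. PARS2 was at 0.00 with DESeq2's size factors in edgeR, -0.02 with library totals, -0.01 with a mean of at least 1 CPM, -0.08 with the correction for GC content and length, -0.07 with the block as well, and -0.03 over protein-coding genes. YARS1 was at -0.01, 0.00, -0.01, -0.01 and -0.02 under the same settings from library totals on. NARS1 was at -0.01 with library totals or a mean of at least 1 CPM and at -0.03 over protein-coding genes. AIMP1 was at 0.01 under the correction with or without the block, and EEF1E1 at 0.04 without and 0.03 with it. With 1 library left out, the range was -0.07 to 0.01 for MARS1, -0.15 to 0.14 for NARS1, -0.16 to 0.18 for PARS2, -0.24 to 0.03 for EEF1E1, -0.11 to 0.18 for EPRS1, -0.33 to 0.17 for FARSA, -0.02 to 0.24 for GARS1, -0.02 to 0.02 for YARS1 and -0.03 to 0.26 for AIMP2. The cause of these moves was not tested. Of all values of single members under the alternatives, 417 kept direction and side of the threshold, 53 passed it newly, 31 lost it and 31 turned sign.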
